A study of Mus musculus with 6 samples.

Results

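Cystatins are small proteins that block papain-like cysteine proteases such as the cathepsins. 10 of their genes, listed together as cystatins of testis and epididymis, were followed here in mouse testis with and without TAp73. The genes are Cst3, Cst6, Cst7, Cst8, Cst9, Cst11, Cst12, Cst13, Csta1 and Cstb, and not all of them are best known from those tissues. They were chosen by name, and each was read by the probes whose deposited accession belongs to it. All 10 genes were on the array, each with 1 probe, among 39429 probes and 19747 named genes in all.

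The study compared whole testis of 3 mice labelled TAp73 KO with 3 labelled TAp73 WT, with 1 array per mouse. All 6 were male C57BL/6J mice aged 10 weeks. TAp73 is the p73 isoform with a transactivation domain and belongs to the p53 family of transcription factors, and the study's title places it in sperm cell adhesion and maturation. The exons removed, and the cells in which they were removed, are not stated in the labels. A whole testis holds germ cells at all stages, Sertoli cells, Leydig cells, peritubular cells, vessels and macrophages.

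The stefins, Cstb and Csta1, lack a signal peptide and act inside the cell. Cystatin C (Cst3), cystatin E/M (Cst6) and cystatin F (Cst7) are made with a signal peptide and inhibit cathepsins outside the cell or in lysosomes. Cst8, Cst9, Cst11, Cst12 and Cst13 belong to a reproductive branch, named after its founder CRES (Cst8), that is expressed mainly in testis and epididymis and has lost parts of the conserved protease-binding motifs. In the RefSeq gene order of assembly GRCm38.p6, Cst11, Cst12, Cst8, Cst13, Cst9 and Cst3 lie in this order in a run of 9 consecutive genes on chromosome 2. The other 3 genes of the run are the cystatin relatives Cstl1, Cstdc1 and Cstdc2. Cst7 is on the same chromosome outside the run, Csta1 on chromosome 16, Cstb on chromosome 10 and Cst6 on chromosome 19.

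Of all probes, 74.4% to 84.4% per array were well above background and 1.59% to 4.45% had a saturated spot. The 75th percentile of the signal, to which each array was scaled, was 4137 to 5160 units in the knockouts and 5185 to 5688 in the wild types, a mean difference of 0.26 on the log2 scale. A probe that reads the scanner's highest value throughout therefore appears about 0.26 higher in the knockout after scaling. The 171 tested probes with a saturated spot on all 6 arrays had a median difference of 0.25, against 0.06 for all 31801 tested probes. The targeted gene went with the scanner files' labels: Trp73 probe A_52_P193555 read 17.2, 4.81 and 5.17 units in the knockouts and 605, 548 and 587 in the wild types (log2 difference -6.01, adjusted p = 0.00369). The other 2 Trp73 probes differed by -3.21 (adjusted p = 0.00213) and, for the brightest, A_52_P410636, by -0.99 (adjusted p = 0.0104). In the value table that was also deposited the genotype labels are the other way round, and each direction below follows the scanner files.

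No cystatin passed the test. All 10 members passed the filter on dim probes, 9 of them well above background on all 6 arrays, and 0 were called lower and 0 higher at an adjusted p under 0.05 in limma. Over all tested probes, 2.64% were called lower and 0.248% higher in this comparison, 2.88% in all. At an unadjusted p under 0.05 there were 2 lower members, Cstb and Cst6, and 0 higher, where all probes had 10.9% lower and 12.3% higher. With 3 arrays in each group, an exact permutation test of a single gene cannot go below p = 0.1, the value that Cstb, Cst6 and Cst9 reached (two-sided). In whole testis, fewer cells of a type and less RNA per cell cannot be told apart.

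**Figure D1:**
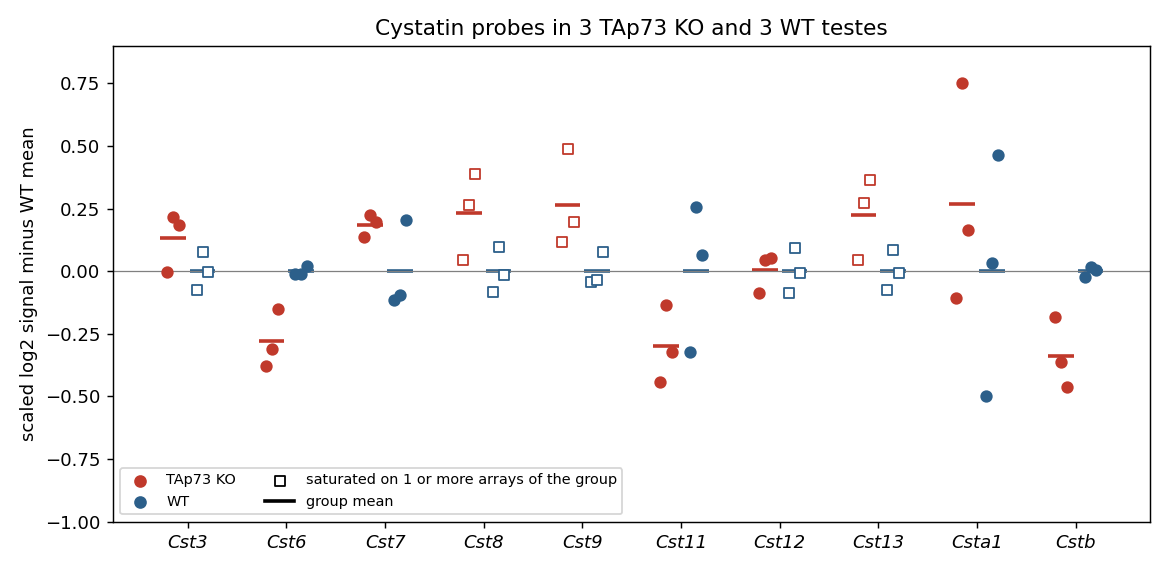
Scaled log2 signal of each cystatin probe minus its wild type mean (y axis), for 3 TAp73 KO arrays and 3 WT arrays per gene (x axis). Each point is 1 array, lines are group means, and open squares mark groups with a spot saturated on 1 or more arrays. The knockout points of Cstb and Cst6 lie below all 3 wild type points, and those of Cst9 lie above them.

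Stefin B, the product of Cstb, is a cytosolic and nuclear inhibitor of cathepsins whose loss causes a form of myoclonus epilepsy. Its probe read 8093, 5723 and 5665 units of processed signal in knockout replicates 1 to 3 and 9963, 9366 and 9689 in wild type replicates 1 to 3. Every knockout array was below every wild type array, and the wild types lay close together. On the scaled log2 level the knockouts averaged 0.50 ± 0.14 and the wild types 0.83 ± 0.02 (SD, n = 3). The log2 difference was -0.34 (SE 0.09, adjusted p = 0.109), or 0.792-fold with a 95% interval of 0.68 to 0.922. It was -0.27 within slide 1, -0.48 in the slide 2 pair and -0.34 with slide as a block (adjusted p = 0.164). With normexp background correction and quantile normalization the difference was -0.44 and passed the threshold (adjusted p = 0.0279).

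The 3 genes whose scaled values followed Cstb most closely over the 6 arrays, out of 15860 other genes detected on all of them, were Atp2c1 (Pearson r = 0.995), Emb (r = 0.9949) and Prkci (r = 0.9925). Their log2 differences were -0.25, -0.88 and -0.34, and among them Emb passed the test (adjusted p = 0.0471). Atp2c1 encodes a Golgi calcium and manganese pump, Emb the cell adhesion protein embigin, and Prkci an atypical protein kinase C. With 6 arrays many genes reach such values, and the correlation is given as a description.

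Csta1, of the stefin A group, was near the lower limit of detection. Its signals were 48.5, 70.5 and 49.8 units in the knockouts and 40.9, 53.6 and 75.9 in the wild types, where 2 of 3 arrays were well above background. The groups overlapped widely. The log2 difference was 0.27 with a 95% interval of -0.47 to 1.01 (adjusted p = 0.605), so that changes of up to 2.02-fold higher or 0.72-fold in the other direction lie within the error.

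Cystatin C is the most widely expressed secreted cystatin, and its gene, Cst3, was read at the top of the scanner's range. The processed signals were 56899, 53081 and 54963 units in the knockouts and 59784, 60370 and 59766 in the wild types. The spot was marked as saturated on 2 of 3 wild type arrays and on 0 of 3 knockout arrays. Before scaling, every knockout array was below every wild type array (log2 difference -0.13). After scaling the difference was 0.13 with overlapping groups (95% interval -0.08 to 0.35, adjusted p = 0.39), so its direction turned with the scaling.

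Cystatin E/M, encoded by Cst6, inhibits legumain as well as cathepsins and is best known from skin. Its signals were 132, 111 and 131 units in the knockouts and 188, 171 and 183 in the wild types. The groups did not overlap. The scaled levels were -5.19 ± 0.12 and -4.91 ± 0.02 (SD, n = 3), and the log2 difference was -0.28 (SE 0.08, 95% interval -0.48 to -0.08, adjusted p = 0.132), or 0.824-fold. Within slide 1 it was -0.35 and in the slide 2 pair -0.14. Without scaling between arrays it was -0.54 (adjusted p = 0.0446), and with normexp and 75th percentile scaling it turned to 0.39 (adjusted p = 0.609).

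Cystatin F, encoded by Cst7, is made by leukocytes and controls cathepsin C in their granules. It read 165, 141 and 146 units in the knockouts and 153, 141 and 182 in the wild types, with overlapping groups. The log2 difference was 0.19 (95% interval -0.07 to 0.44, adjusted p = 0.322), and -0.07 without scaling.

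The reproductive branch held 4 genes at or near the scanner's limit and 1 dim gene. Cst8, the founder of the branch, is known from haploid germ cells and the proximal epididymis. Its signals were 58227, 54485 and 62491 units in the knockouts and 58795, 60698 and 58769 in the wild types, with a saturated spot on 3 of 3 knockout and 2 of 3 wild type arrays. Cst13, known as a testis cystatin, was saturated on all 6 arrays at 59052, 55528 and 62785 units in the knockouts and 60164, 61214 and 60149 in the wild types. Cst9, first described as testatin in the developing testis, read 72166, 75158 and 64943 units in the knockouts, where 2 of 3 spots were saturated, and 71596, 65327 and 74000 in the wild types, where 3 of 3 were. None of these signals separated the groups before scaling.

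After scaling the log2 differences were 0.23 for Cst8, 0.22 for Cst13 and 0.27 for Cst9 (limma adjusted p = 0.255, 0.256 and 0.227). Without scaling they were -0.03, -0.04 and 0.01. They stood near the 0.25 of all probes saturated on every array, so no fold is given for these 3 genes.

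Cst12, listed by RefSeq with the synonym CRES3, was close to the limit in another way. Its processed signals were 53442, 46725 and 49752 units in the knockouts and 58663, 60580 and 59073 in the wild types, with a saturated spot on 2 of 3 wild type and 0 of 3 knockout arrays. The median pixel of the spot, before background correction, was 60066, 54986.5 and 50450 in the knockouts, and 65526, 65514 and 65526 in the wild types, where the highest value in the files is 65527. All 3 knockout arrays were thus within the scanner's range and all 3 wild type arrays at its end, so that the wild type level is a lower bound. The median pixel of Cst3 had the same order, with 65217.5, 62571 and 56624.5 in the knockouts and 65526, 65514 and 65526 in the wild types. For Cst12 the log2 difference was -0.25 without scaling, -0.16 under quantile normalization and 0.01 with 75th percentile scaling (95% interval -0.19 to 0.21, adjusted p = 0.97). The overall brightness of the arrays, lower by 0.26 in the knockouts at the 75th percentile, moves with this difference, and its part in it was not tested.

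**Figure D2:**
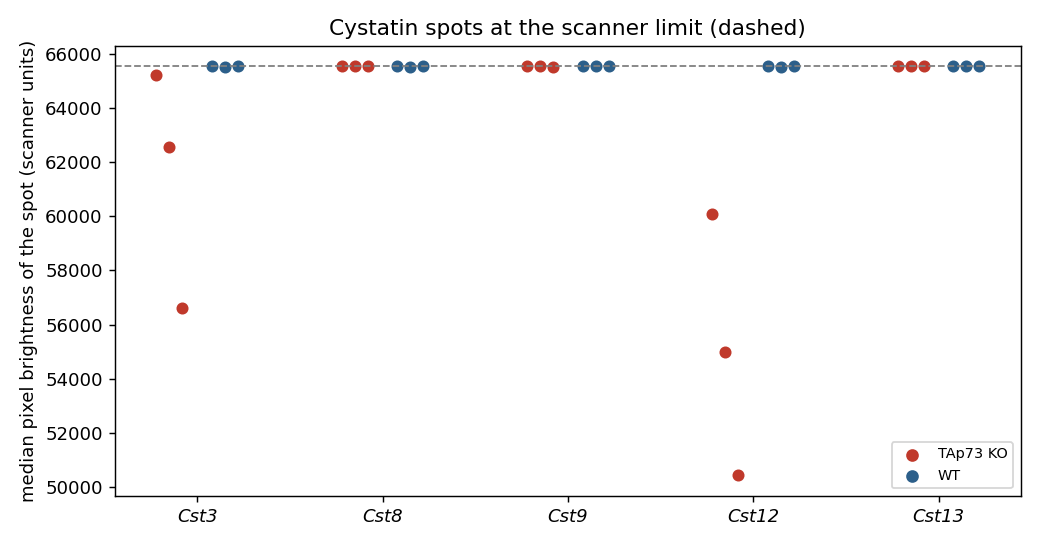
Median pixel brightness of the spot in scanner units (y axis, starting above 0) for the 5 cystatins with a saturated spot (x axis), with 1 point per array. Cst8, Cst9 and Cst13 lie at the dashed limit of 65527 in both groups, whereas Cst3 and Cst12 lie below it on all 3 knockout arrays and at 65514 to 65526 on the wild type arrays.

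Cst11, listed with the synonym CRES2, is known chiefly from the epididymis. It read 124, 123 and 115 units in the knockouts and 148, 202 and 185 in the wild types, and before scaling the groups did not overlap. The scaled levels were -5.23 ± 0.16 and -4.94 ± 0.30 (SD, n = 3) and overlapped. The log2 difference was -0.29 (95% interval -0.70 to 0.11, adjusted p = 0.316), with -0.16 within slide 1 and -0.57 in the slide 2 pair, and it turned to 0.40 under normexp with 75th percentile scaling (adjusted p = 0.562). Of 34 epididymis and efferent duct markers on the array, 12 were not well above background on any array, among them Lcn5, Lcn8, Lcn9, Rnase9, Defb12 and Gpx5. The summed signal of the 20 tested markers, relative to the 75th percentile, was 20 to 24 in the knockouts and 19.7 to 22.4 in the wild types, but it was carried by Lcn2, which had a saturated spot on 5 of 6 arrays. Without Lcn2 the sum was 7.41 to 8.23 in the knockouts and 8.58 to 9.11 in the wild types, of which Wfdc10 (-0.29, adjusted p = 0.12) made up 63.6% to 71.1%. The remaining 18 markers summed to 2.62 to 2.91 and 2.58 to 2.74. The part of epididymal tissue in the difference of Cst11 was not tested. Of the 20 markers, Spink8 fell (-1.11, adjusted p = 0.0206) and 19 did not pass, where 2.64% of all tested probes were called lower.

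Counted over the members, 2 were lower in every knockout array than in every wild type array after scaling (Cstb and Cst6) and 1 was higher (Cst9), while 7 overlapped. Among all tested probes 13.1% were lower and 18.6% higher without overlap, 31.7% in all. Before scaling, 5 members lay lower without overlap (Cst3, Cst6, Cst11, Cst12 and Cstb) and 0 higher, and 28.6% of all tested probes lay lower in the same way. The median difference of the 10 members was 0.16. It was 0.22 for the 5 members with a saturated spot and 0.05 for all 17037 tested genes. For the other 5 members it was -0.28, but these were split. Of them 3 lay below 0 (Cstb, Cst11 and Cst6), while Cst7 (0.19) and Csta1 (0.27) lay above.

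**Figure D3:**
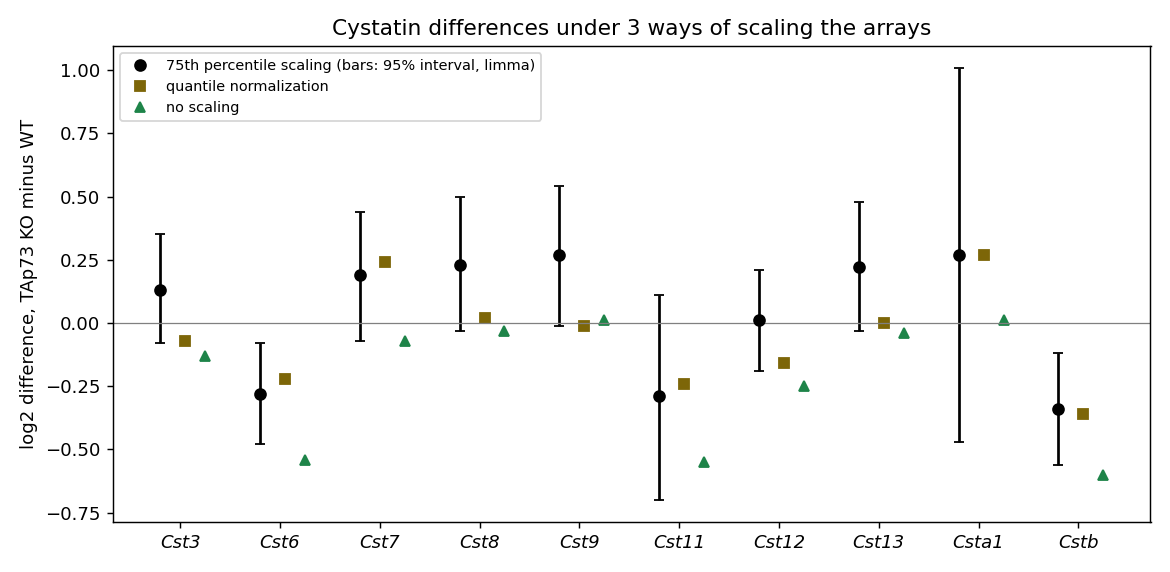
Log2 difference between TAp73 KO and WT (y axis) for the 10 cystatins (x axis) with 75th percentile scaling, quantile normalization and no scaling. Bars are 95% intervals of the limma fit for the first. Cst6, Cst11 and Cstb lie below 0 under all 3 of these settings, and Cst3 and Cst12 lie above 0 only with 75th percentile scaling.

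Within the chromosome 2 run, 1 of 9 genes was called, and it was not a member. Among all tested probes 2.88% were called in either direction. Cstdc1, which lies between Cst11 and Cst12, fell. It read 7391, 4927 and 6115 units in the knockouts and 14337, 11850 and 14324 in the wild types, so that the groups stood well apart. The log2 difference was -0.89 (SE 0.10, adjusted p = 0.0151), or 1.86-fold lower, with -0.98 within slide 1, -0.71 in the slide 2 pair and -0.89 with slide as a block (adjusted p = 0.0483). Its spots were saturated on no array. Leaving out knockout replicate 2 or 3 or wild type replicate 2 or 3 ended the call, with adjusted p-values of 0.0574, 0.0651, 0.0659 and 0.0623. So did normexp with 75th percentile scaling (-0.87, adjusted p = 0.345) and slide 1 alone (adjusted p = 0.264). The other 2 relatives in the run did not pass: Cstl1 (0.24, adjusted p = 0.289) had a saturated spot on 5 of 6 arrays, and Cstdc2 differed by 0.48 (adjusted p = 0.30).

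**Figure D4:**
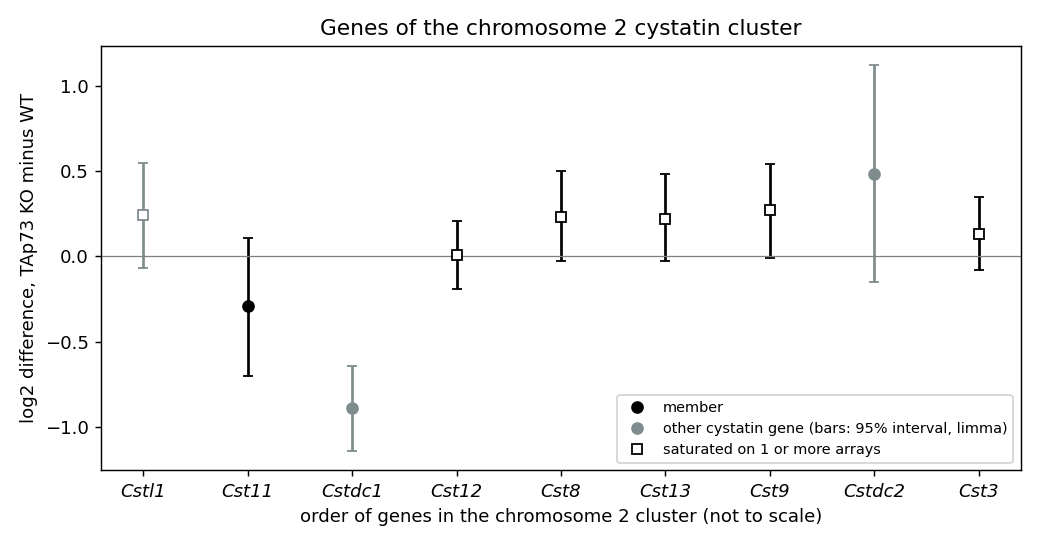
Log2 difference between TAp73 KO and WT (y axis) for the 9 genes of the chromosome 2 run in their order along the chromosome (x axis, not to scale), with 95% intervals. Black symbols are members, grey symbols other cystatin genes, and open squares have a saturated spot. Cstdc1 at -0.89 is the one gene whose interval lies wholly below 0.

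Promoter windows of RefSeq (assembly GRCm38.p6, 250 bases before to 50 after the annotated start) were given for 7 of the members, the others being Cst6, Cst11 and Cstb. They were searched on both strands for the p53-family consensus decamer, for the TATA box TATAAA and for the GC box GGGCGG. They were also searched for the cAMP response element TGACGTCA and for its short form TGACG, which every full element contains. The decamer was in 1 of the 7 windows, that of Csta1, starting 26 bases before the start, and in 8.36% of all 32851 windows. TATAAA was in 1 window, that of Cst13, against 13.6% of all windows. It lay there on the opposite strand, as TTTATA starting 208 bases before the start. GGGCGG, a letter string bound by Sp1, was in 1, that of Cst3, against 35.7%. The short and the full cAMP response element were in 0 of the 7, against 20.8% and 1.79% of all windows. These are matches of letters, and nothing about a factor's binding follows from them.

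The windows differed in CpG, the dinucleotide that marks broadly active promoters. That of Cst3 held 13 CpG, more than the median of 7 over all windows, while Cst8 held 1, Cst12 and Cst9 3 each, Cst13 0, Csta1 1 and Cst7 5. Printed below are the window of the widely expressed Cst3, those of Cst12 and Cst8, which are neighbours in the run with spots near or at the scanner's limit, and that of Csta1 with the decamer. They lie at chr2:148875463-148875762 (minus strand), chr2:148789115-148789414 (plus), chr2:148798589-148798888 (plus) and chr16:36131140-36131439 (minus). Capitals mark the GC boxes of Cst3 and the p53-family decamer of Csta1.
Cst3: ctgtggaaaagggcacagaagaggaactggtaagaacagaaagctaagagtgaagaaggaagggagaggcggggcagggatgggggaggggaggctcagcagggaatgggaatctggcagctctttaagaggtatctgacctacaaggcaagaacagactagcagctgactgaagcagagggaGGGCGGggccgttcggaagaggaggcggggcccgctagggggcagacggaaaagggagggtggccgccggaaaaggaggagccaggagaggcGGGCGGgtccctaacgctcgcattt
Cst12: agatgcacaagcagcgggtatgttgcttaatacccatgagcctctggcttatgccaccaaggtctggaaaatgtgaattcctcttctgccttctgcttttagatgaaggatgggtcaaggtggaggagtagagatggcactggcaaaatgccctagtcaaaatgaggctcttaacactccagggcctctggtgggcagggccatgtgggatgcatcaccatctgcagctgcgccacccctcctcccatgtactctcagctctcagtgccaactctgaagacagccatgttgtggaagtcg
Cst8: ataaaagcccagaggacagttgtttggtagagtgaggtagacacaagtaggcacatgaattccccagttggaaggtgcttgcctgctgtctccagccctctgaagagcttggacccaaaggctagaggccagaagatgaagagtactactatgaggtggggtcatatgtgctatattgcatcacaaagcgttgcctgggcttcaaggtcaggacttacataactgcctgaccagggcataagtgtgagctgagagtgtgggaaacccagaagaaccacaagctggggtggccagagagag
Csta1: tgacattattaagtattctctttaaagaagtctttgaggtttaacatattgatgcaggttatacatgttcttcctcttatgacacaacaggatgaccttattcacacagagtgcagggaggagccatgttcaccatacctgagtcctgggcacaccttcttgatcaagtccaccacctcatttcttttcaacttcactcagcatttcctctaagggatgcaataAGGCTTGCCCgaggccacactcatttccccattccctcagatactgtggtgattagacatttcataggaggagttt

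Of the wider cystatin superfamily, 23 other genes were on the array and 19 were tested. Of these 1 fell (Cstdc1), 0 rose and 18 did not pass, with a median difference of 0.10. Over all tested probes 2.64% were called lower and 0.248% higher. The smallest p-values after Cstdc1 were those of the plasma glycoproteins fetuin A, Ahsg (-1.01, adjusted p = 0.0687), and Hrg (-0.31, adjusted p = 0.167). Ahsg read 177, 105 and 119 units in the knockouts and 397, 341 and 231 in the wild types, without overlap. The value depended on the background correction: under normexp it was -0.10 with 75th percentile scaling (adjusted p = 0.906) and -0.52 with quantile normalization (adjusted p = 0.213). It passed the test without wild type replicate 3 (-1.24, adjusted p = 0.0488), among probes detected on all 6 arrays (-1.01, adjusted p = 0.0488) and without scaling (-1.27, adjusted p = 0.0397).

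Several of the enzymes that cystatins inhibit did fall. Of 13 genes of papain-like cathepsins and legumain on the array, 11 were tested, 4 fell, 0 rose and 7 did not pass, with a median difference of -0.50. This share can be set against the 2.64% of all probes called lower. Legumain, Lgmn, an asparagine-specific protease of lysosomes, read 16401, 13720 and 13277 units in the knockouts and 29417, 27963 and 26577 in the wild types (log2 difference -0.70, adjusted p = 0.0124). The antigen-processing cathepsin Ctss read 1528, 1014 and 1171 against 2724, 2750 and 2512 (-0.87, adjusted p = 0.0148). The dipeptidyl peptidase Ctsc read 626, 480 and 537 against 1079, 1045 and 1306 (-0.80, adjusted p = 0.0199). The carboxypeptidase Ctsz read 2594, 2076 and 2205 against 4017, 3955 and 3636 (-0.50, adjusted p = 0.0294). The groups did not overlap in any of these 4 genes, which were named because they were called. Of all tested probes, 13.1% lay lower without overlap after scaling.

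Cathepsin B, Ctsb, a main lysosomal target of stefin B and cystatin C, missed the threshold narrowly (-0.64, adjusted p = 0.05003). Cathepsin L, Ctsl, which is abundant in Sertoli cells, had a saturated spot on 5 of 6 arrays and differed by 0.27 (adjusted p = 0.203). By slide, Lgmn differed by -0.63 on slide 1 and -0.83 in the pair on slide 2, Ctss by -0.81 and -0.99, Ctsc by -0.85 and -0.72, and Ctsz by -0.46 and -0.60. With slide as a block Lgmn and Ctss remained called (adjusted p = 0.0439 and 0.0455), and Ctsc and Ctsz did not (0.0593 and 0.0649). The number of called enzymes was 0 without knockout replicate 2 or 3 or wild type replicate 2, and 2 without knockout replicate 1 or wild type replicate 3.

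**Figure D5:**
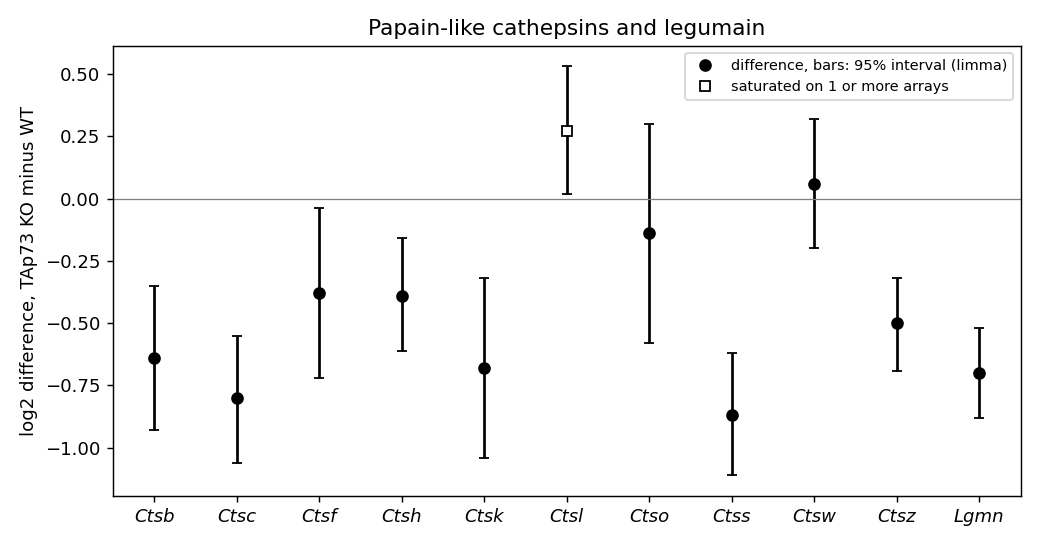
Log2 difference between TAp73 KO and WT (y axis) for the 11 tested papain-like cathepsins and legumain (x axis), with 95% intervals of the limma fit; the open square has a saturated spot. Of these 9 lie below 0, and Ctsl, with its saturated spot, and Ctsw lie above.

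Markers of somatic cells of the testis differed on the same arrays. The counts below can be set against the 2.64% of all probes called lower and the 0.248% called higher. Under normexp with 75th percentile scaling, and within slide 1, 0 of all probes were called, and so 0 of these markers. Of 19 Sertoli cell markers 6 fell and 0 rose, with a median difference of -0.44, and their summed signal relative to the 75th percentile was 58.5 to 64.2 in the knockouts and 66.9 to 71.1 in the wild types. The sum included Clu and Amhr2, which had saturated spots, and the other 17 markers summed to 31.2 to 31.9 against 42.6 to 44.8. Shbg, the gene of the androgen-binding protein (-0.97, adjusted p = 0.00912), and the transcription factor Sox9 (-0.64, adjusted p = 0.0186) had the smallest p-values, and Gstm6 (-0.45), Vim (-0.58), Aard (-0.44) and Gata1 (-0.51) were the others. Of 17 tested macrophage and leukocyte markers 5 fell and 0 rose, with a median of -0.43 and a summed signal of 12.9 to 14.1 against 14.9 to 16.8. Itgam made up 46.3% to 61.5% of this sum through its brightest probe. That probe read 32717 to 50722 units and differed by 0.01 (adjusted p = 0.963). The gene's other probes read 59.7 to 123 units and differed by 0.22 and -0.20. The other 16 markers summed to 4.96 to 5.48 against 7.46 to 8.28. Here Itgax, an integrin of dendritic cells (-1.93, adjusted p = 0.00369), and Cd74, the invariant chain (-1.11, adjusted p = 0.0124), fell, as did C1qc (-0.72), Coro1a (-0.55) and Lyz1 (-0.96). Cd163, a marker of resident macrophages, was well above background on 0 of 3 knockout and 1 of 3 wild type arrays.

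Of 20 spermatid markers 0 fell and 0 rose in limma, with a median of 0.25, and 15 had a saturated spot. Before adjustment 9 of the 20 were higher and 0 lower at a limma p under 0.05. Over all tested probes these shares were 12.3% and 10.9%. Spata19 (0.34, adjusted p = 0.0552) and Crisp2 (0.44, adjusted p = 0.063) had the smallest p-values. Neither had a saturated spot, but both were bright, at 45481 to 55198 and 52673 to 75438 units. Without scaling they differed by 0.09 and 0.18. The others of the 9, Acrv1, Zpbp, Acr, Tssk1, Tssk2, Odf1 and Odf2, differed by -0.06 to 0.02 without scaling. Among these, Acr, Tssk1, Tssk2, Odf1 and Odf2 had a saturated spot on at least 1 array. The scaling adds about 0.26 to each log2 difference. Of 9 neutrophil markers on the array 2 were tested, Mpo (0.21, adjusted p = 0.221) and Elane (-0.51, adjusted p = 0.30), and 0 were called, and S100a8, Ltf, Retnlg and Mmp8 were not well above background on any array. How much of the differences of Cstb, Cstdc1 or the cathepsins goes with the amount of these cells was not tested.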

How the data were processed

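The 10 members, the gene lists and the tests were chosen with earlier results of these data known. RNA of 6 testes was hybridised to one-colour Agilent arrays. The deposited intensity of each spot is the processed signal of Feature Extraction 10.7.3.1, background-subtracted, on a design annotated to mm9, per the file headers. The submitters' processing notes name limma without a version. A deposited table of normalized intensity matched the arrays of the opposite label (r of 0.97 to 0.99) and served as an alternative.

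Control spots were left out, saturated spots were kept, and outlier spots (163 to 280 on an array) were treated as missing. Spots of a probe were averaged, and each array's 75th percentile of log2 signal was subtracted. A probe was tested if well above background (at least 50% of its spots) on 3 or more of 6 arrays with 2 or more values in each group. The 2 groups were compared with lmFit and eBayes of limma 3.58.1 in R 4.3.3, and p-values were adjusted by Benjamini-Hochberg over 31801 probes (threshold 0.05). The procedure was tested on simulated data. Genes of several probes were read by the brightest. The rule for named genes took all members, the called genes of the other cystatins and of the proteases (or the 3 of smallest p-value where fewer were called), the called genes of each marker list (or the 2 of smallest p-value), Trp73, and the 3 genes most like the member of smallest p-value. Ctsb, Ctsl, Ctsw, Cstl1, Cstdc2, Cd163 and the undetected markers were named after their values were seen. Summed marker signals are linear, each array divided by its 75th percentile; the sums without saturated or brightest probes, and the naming of those probes, were chosen after seeing the data.

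The arrays lay on 2 slides, slide 1 with knockout replicates 1 and 2 and wild type replicates 1 and 3. The alternatives were normexp, quantile, median and no scaling, other filters, slide, replicate block, the value table and each array left out. Normexp used the median signal, the files having no mean signal column. Gene order, synonyms and promoters came from RefSeq GRCm38.p6. The number of arrays limits the precision.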

Additional observations from a re-analysis of the deposited data

How the results depend on the processing

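The 10 cystatins gave 0 calls under the other settings run, apart from 1 lower under normexp with quantile normalization (Cstb) and 1 lower without scaling (Cst6), a setting chosen after seeing the data. The numbers of probes called lower and higher were 0 and 0 under normexp with 75th percentile scaling, 349 and 13 without a filter, 299 and 15 with slide as a block, 0 and 0 within slide 1, and 2043 and 13 without scaling. Normexp with quantile normalization gave 405 lower, and quantile normalization, median scaling and detection on all 6 arrays gave 217, 143 and 165 higher. Of the proteases 0, 1, 2 and 0 were called lower under normexp with 75th percentile scaling, normexp with quantile normalization, the slide block and slide 1. Of the other cystatins 0, 0, 2 and 2 were called lower under normexp with 75th percentile scaling, within slide 1, with detection on all arrays and without scaling.

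Leaving out 1 array gave 116 to 420 probes lower and 7 to 28 higher, 0 to 3 proteases and 0 to 1 other cystatins lower. Cst12 then ranged from -0.04 to 0.05: it turned to -0.01, -0.02 and -0.04 without knockout replicate 2, knockout replicate 3 or wild type replicate 1, and it was -0.04 on slide 2. Signs also turned under normexp with 75th percentile scaling (Cst6 0.39, Cst11 0.40, Cst12 -0.03, Hrg 0.26), normexp with quantile normalization (Cst3 -0.07, Cst9 0.00, Cst12 -0.19), quantile normalization (Cst3 -0.07, Cst9 -0.01, Cst12 -0.16, Cst13 0.00) and no scaling (Cst3 -0.13, Cst7 -0.07, Cst8 -0.03, Cst12 -0.25, Cst13 -0.04). The median of all probes was 0.22 under normexp with 75th percentile scaling and -0.20 without scaling. By construction, each difference without scaling is the scaled one less about 0.26, the shift between the groups at the 75th percentile. The cause of the other turns was not tested.

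The value table under its own, opposite labels gave 216 lower and 876 higher probes, 0 proteases lower and 5 higher, and 0 other cystatins lower and 1 higher. Its differences were 0.22 for Cst6, -0.24 for Cst7, -0.02 for Cst8, 0.24 for Cst11, -0.27 for Csta1, 0.36 for Cstb, 0.94 for Trp73, 0.93 for Cstdc1, 0.95 for Ahsg, 0.25 for Hrg, 0.77 for Lgmn, 0.82 for Ctss, 0.75 for Ctsc and 0.48 for Ctsz. Replicate numbers did not pair the samples: same-numbered deviations correlated at -0.09 to -0.03, and 0 of 6 arrays correlated best with their own number. With the replicate number as a block, 9 probes were lower and 1 higher, with 0 proteases and 0 other cystatins lower. Saturation limits Cst3, Cst8, Cst9, Cst12 and Cst13, and signals near background limit Csta1. Cst6, Cst7 and Cst11 were dim as well. Under normexp with 75th percentile scaling they moved to 0.39, 0.71 and 0.40, where the median of all probes was 0.22.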
